A study of Mus musculus with 20 samples.

Results

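The genes described here encode the laminins, the proteins that link them to the rest of the basement membrane, and the integrins and dystroglycan that bind them. They were taken by gene symbol from a list of laminin chains, nidogens, perlecan, agrin, dystroglycan and integrin subunits, and all 41 were found among the 55376 genes of the count tables. Their RNA was measured by bulk sequencing of endothelial cells sorted from mouse sciatic nerve. In the first experiment, Plxnd1 WT adult mice carried the reporter labelled Chd5CreER/R26-TdTomato, in which an inducible Cre driven by the Cdh5 promoter, a promoter of endothelial cells, switches on a red protein (Tomato). These cells came from intact nerve (5 libraries) or from the lesion 7 days after injury (7 dpi, 5 libraries) or 14 days after it (14 dpi, 4 libraries). In the second experiment, cells with the reporter KDR_cherry (Cherry) were taken at 7 dpi from control mice (Plxnd1 WT, 3 libraries) or from Chd5::CreER; Plxnd1fl/fl mice, in which the inducible endothelial Cre is directed at a floxed Plxnd1 (Plxnd1 KO, 3 libraries). No Cherry cells of intact nerve or of 14 dpi were analysed here. Nerves were pooled and the sort kept CD45-negative cells with the reporter. In the labels the injury is named a crush, whereas the design text names the bridge at the lesion, so the exact injury model is uncertain. Libraries are not tied to animals in the labels, and a p-value here therefore reflects library-to-library spread, part of which may be technical. The age of the adult mice was not given.

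Laminins are cross-shaped trimers of an alpha, a beta and a gamma chain that polymerise on the cell surface into the first layer of a basement membrane. Nidogens and the proteoglycan perlecan tie this layer to the collagen IV network, and integrins, each made of an alpha and a beta subunit, anchor cells to it. Vascular basement membrane is built mainly around the alpha4 and alpha5 chains, while fibronectin and other ligands with an RGD motif, which provide a provisional matrix in wounds, are bound by other integrins.

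Total counts were 19.06 to 34.18 M per library. The deleted gene, Plxnd1, was at 350 CPM (counts scaled to library size with TMM factors), 324 and 344 CPM in WT and at 131.4, 161 and 160.1 CPM in KO libraries, a log2 fold change of -1.23 ± 0.10 (SE; edgeR adjusted p = 1.29e-04). All 10 pan-endothelial markers were detected in every library, with summed levels of 5060 to 13100 CPM in Tomato and 11800 to 13100 CPM in Cherry libraries. Markers of other nerve cells were also present. The 10 fibroblast markers summed to 9640 to 18000 CPM in intact nerve, 4500 to 20200 CPM at 7 dpi and 16700 to 36500 CPM at 14 dpi, and the 9 perineurial markers to 4190 to 6550 CPM, 480 to 1330 CPM and 1660 to 3880 CPM. In Cherry WT libraries these sums were 930 to 2310 CPM and 331 to 383 CPM. Intact replicate 5 stood apart, with 45590 genes with a count against 24996 to 32905 in the other intact libraries, and 2 libraries held more macrophage markers than the others: 345 CPM in 7 dpi replicate 4 and 1100 CPM in 14 dpi replicate 3. In these bulk samples, fewer cells of a type and less RNA per cell cannot be told apart.

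To find which of these genes change in nerve endothelium after injury, the lesion at 7 dpi was compared with intact nerve. Of the 39 members with enough counts for the test, 11 rose and 11 fell at an adjusted p under 0.05 (edgeR). Over all 20409 genes tested 32.0% passed, 15.7% higher and 16.3% lower. The members' median log2 fold change was 0.007, beside -0.10 for all genes. The rises were the laminin chains Lamb1 and Lamc1, the linkers Nid1, Nid2 and Hspg2, and the integrin subunits Itga2, Itga2b, Itga5, Itgav, Itgb1 and Itgb3. The falls were Lama3, Lamb2, Lamb3, Lamc3, Dag1, Itga1, Itga6, Itga7, Itgb4, Itgb7 and Itgb8. In 18 of the 39 the 7 dpi libraries did not overlap the intact libraries in CPM, beside 21.6% of all genes tested. All 22 called members had 1 sign in both sequencing batches of the labels, 1133 and 1292, as had the 13 and 9 called members of the next comparisons. They had been called on both batches together, which favours the same sign in each, so this is no separate test. The counts were 11 and 11 again without the 3 libraries that stood apart. In batch 1133 alone, 8 of the 22 missed the threshold (Lamc1, Nid1, Dag1, Itga1, Itga6, Itgav, Itgb1 and Itgb8), and without the batch term Lama3, Itga1 and Itgav did. The 10 pan-endothelial markers summed to 9260 ± 3030 CPM (SD) in intact nerve and 9410 ± 1540 CPM at 7 dpi. Of these markers 7 rose and 1 fell, with log2 fold changes of -2.325 to 1.032 and a median of 0.73. This median is about the size of the rises of Lamc1, Nid1, Itgav and Itgb1. The part of the share of endothelial RNA in these rises was not tested.

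At 14 dpi 10 members were higher and 3 lower than in intact nerve, and of all genes 12% passed, 6.86% higher and 5.09% lower. The median was 0.009 beside 0.0047 for all genes. Those higher were Lama2, Lamb1, Nid1, Nid2, Hspg2, Itga2, Itga2b, Itga5, Itgb1 and Itgb3, and those lower were Lamb3, Lamc3 and Itgb4. The 2 comparisons share the intact libraries. From 7 to 14 dpi, 6 members rose (Lama2, Lamb2, Itga7, Itgb4, Itgb7 and Itgb8) and 3 fell (Itga2, Itga5 and Itgb3). Of all genes 9.93% passed, 5.73% higher and 4.20% lower. Of the genes that fell at 7 dpi, Lamb2, Itga7, Itgb4, Itgb7 and Itgb8 thus rose again, while none of the linkers passed the test between the time points. The fall and the later rise share the 7 dpi libraries, so they are not independent results. Without the 3 libraries that stood apart, 2 members rose (Itga7 and Itgb8) and 2 fell (Itga5 and Itgb3) from 7 to 14 dpi.

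**Figure D1:**
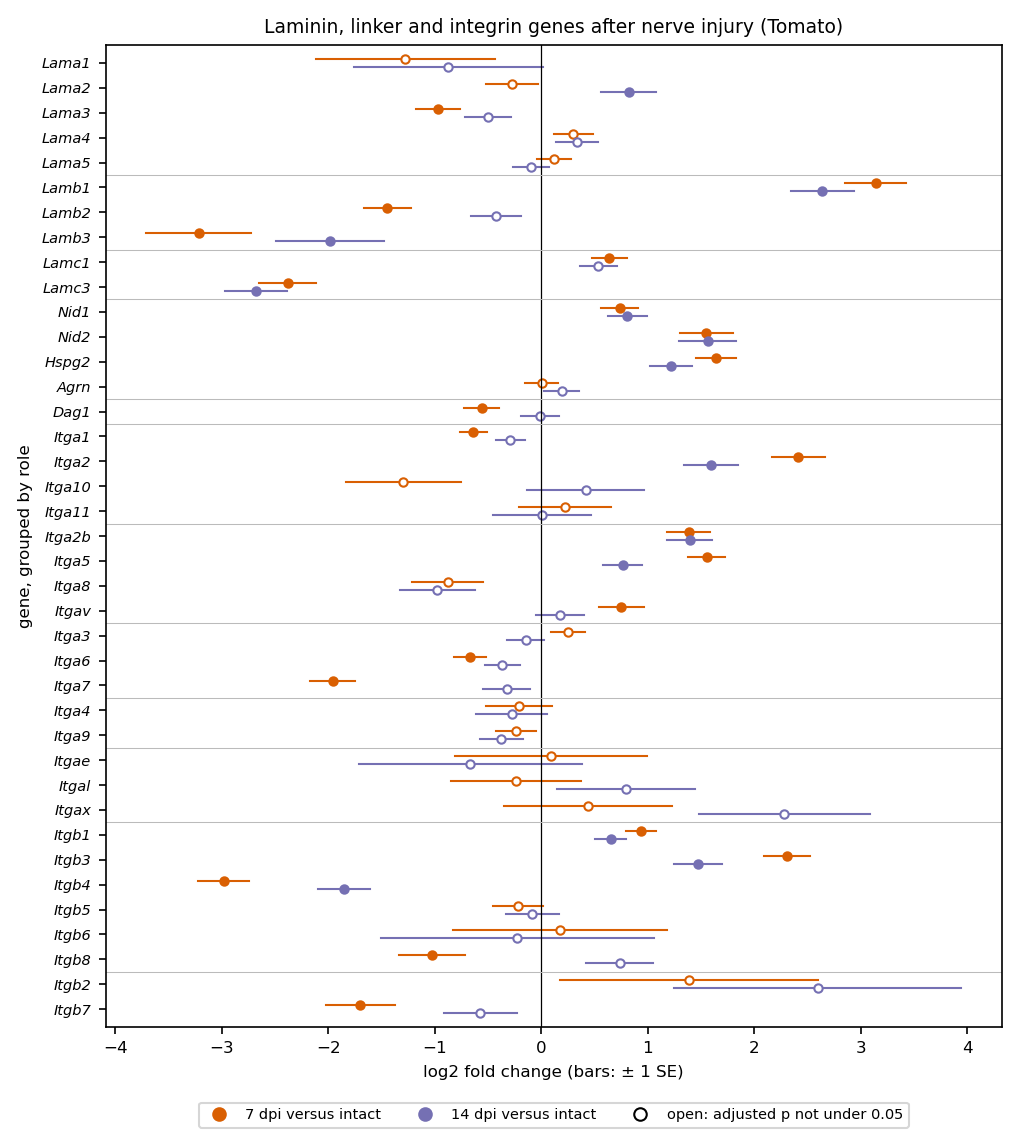
Log2 fold change (x axis, ± 1 SE) of the 39 tested members (y axis, grouped by role) at 7 dpi (orange) and 14 dpi (purple) against intact nerve, filled where an adjusted p was under 0.05. Lamb1 lies farthest to the right at both times (3.14 and 2.64), and Lamb3, Itgb4 and Lamc3 lie farthest to the left.

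The beta chains of laminin changed in opposite directions. Lamb1, which encodes the beta1 chain, was at 38.3, 91.8, 56.1, 31.8 and 25.3 CPM in the intact libraries and at 437, 339, 519, 390.4 and 386 CPM at 7 dpi. At 14 dpi it was at 200.2, 303, 349 and 271 CPM. Every injured library lay above every intact one, by 3.14 ± 0.28 (log2, SE; adjusted p = 3.8e-07) at 7 dpi and 2.64 ± 0.29 (adjusted p = 1.7e-05) at 14 dpi. Lamb2, the beta2 chain, was at 1031, 884, 1350, 1113 and 1056 CPM in intact nerve, at 467, 365, 293, 496 and 396 CPM at 7 dpi, and at 393, 810.1, 1214 and 1022 CPM at 14 dpi. It fell at 7 dpi without overlap (-1.45 ± 0.22, adjusted p = 8.5e-05). At 14 dpi replicates 2 to 4 were in or near the intact range while replicate 1 stayed at the 7 dpi level. The rise from 7 to 14 dpi was 1.02 ± 0.23 (adjusted p = 0.00976), and it missed the threshold without 14 dpi replicate 2 (0.96, adjusted p = 0.0537) or without the 3 libraries that stood apart (0.92, adjusted p = 0.0555). It was 1.37 in batch 1133 alone (adjusted p = 0.0833) and 0.66 in batch 1292 alone (adjusted p = 0.256).

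Lamb1 lies at chr12:31265234-31329644 and Lamb2 at chr9:108479857-108490530, both on the plus strand (GRCm38). The bases before the start of these genes and of Hspg2 and Itga5, which rose at 7 dpi, are shown because Lamb1 and Lamb2 moved in opposite directions. They are RefSeq sequences (GRCm38.p6), 5′ to 3′ on the strand of the gene, cut before the first base of the gene in the count table. Capitals mark the GC box GGGCGG and the CCAAT box on either strand, where the reverse strand reads CCGCCC and ATTGG. The windows are chr12:31265043-31265233 for Lamb1, chr9:108479612-108479856 for Lamb2, chr4:137468553-137468768 for Hspg2 and chr15:103366792-103367041 for Itga5 (minus strand).
Lamb1: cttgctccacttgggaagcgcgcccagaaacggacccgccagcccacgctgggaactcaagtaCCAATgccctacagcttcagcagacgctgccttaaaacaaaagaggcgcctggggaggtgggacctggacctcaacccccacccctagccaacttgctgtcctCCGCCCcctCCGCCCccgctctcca
Lamb2: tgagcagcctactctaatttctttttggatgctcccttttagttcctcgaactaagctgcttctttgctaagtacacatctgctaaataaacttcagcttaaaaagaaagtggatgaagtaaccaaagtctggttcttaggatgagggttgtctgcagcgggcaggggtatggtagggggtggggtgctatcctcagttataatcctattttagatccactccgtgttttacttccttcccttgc
Hspg2: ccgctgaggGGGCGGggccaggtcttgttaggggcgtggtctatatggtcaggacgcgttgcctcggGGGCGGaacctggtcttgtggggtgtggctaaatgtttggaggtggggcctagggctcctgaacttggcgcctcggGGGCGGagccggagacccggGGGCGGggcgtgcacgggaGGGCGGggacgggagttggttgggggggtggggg
Itga5: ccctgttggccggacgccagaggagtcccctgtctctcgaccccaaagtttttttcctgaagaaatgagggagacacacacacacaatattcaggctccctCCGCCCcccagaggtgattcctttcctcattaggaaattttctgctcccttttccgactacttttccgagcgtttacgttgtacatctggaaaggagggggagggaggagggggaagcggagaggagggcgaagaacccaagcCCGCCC

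In these stretches Lamb1 held 2 GC boxes and 1 CCAAT box, Hspg2 held 5 GC boxes, Itga5 held 2 GC boxes, and Lamb2 held neither motif. RefSeq entries were found for 27 of the 41 members. In the 250 bases before the start, a GC box lay in 5 of the 8 risen and 1 of the 6 fallen members with an entry, and in 32.7% of all 32851 promoters. The sequences shown are examples and do not stand for all members: the risen Itga2, Itga2b and Itgav held no GC box, and the fallen Dag1 held 3 before each of its 2 starts. The CCAAT box lay in 2 of 8 and 2 of 6 (33.8% of all), and TGGGAA, the core of the RBPJ motif, in 4 of 8 and 2 of 6 (21.6%). No match to AP-1 (TGANTCA, 6.75%), ETS (CCGGAAG, 6.91%) or the hypoxia core ACGTG (16.6%) was found in these 14. Both strands were searched and matches of different motifs may overlap. Such matches describe letters and no binding was measured.

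The third beta chain, Lamb3, and the alpha chain Lama3 are known from the laminin of epithelial anchoring structures. Lamb3 was at 33.7, 32.8, 68.4, 55.9 and 40.5 CPM in intact nerve, at 7.46, 5.02, 0.375, 6.69 and 6.25 CPM at 7 dpi, and at 3.74, 12.9, 18.1 and 16.7 CPM at 14 dpi. Both injured groups lay wholly below the intact one, with -3.22 ± 0.49 (adjusted p = 7.9e-05) and -1.98 ± 0.51 (adjusted p = 0.0153). The 14 dpi value missed the threshold without 14 dpi replicate 1 (-1.69, adjusted p = 0.0531) or without the 3 libraries that stood apart (-2.20, adjusted p = 0.0515). Lama3 went from 42.0, 53.9, 32.5, 31.6 and 24.3 CPM to 19.4, 25.1, 33.2, 8.19 and 13.8 CPM at 7 dpi. It fell by 0.97 ± 0.21 (log2; adjusted p = 0.00173), with overlap between the groups, and the log2 fold change was -1.33 in batch 1133 and -0.71 in batch 1292. At 14 dpi it was at 26.6, 38.9, 19.9 and 15.5 CPM and did not pass (-0.50 ± 0.22). In Cherry WT libraries Lamb3 had 0, 0 and 0.123 CPM, while Lama3 was at 20.9, 23.5 and 19.3 CPM.

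The alpha chains of vascular laminin did not pass the test in any comparison. Lama4 was at 324, 283, 447, 225 and 232 CPM in intact nerve, at 428, 337, 506, 276 and 307 CPM at 7 dpi and at 272, 499, 379 and 294 CPM at 14 dpi. Its log2 fold change was 0.30 with a 95% interval of -0.09 to 0.69 at 7 dpi and 0.34 with -0.08 to 0.75 at 14 dpi. Lama5 was at 123, 134, 112, 89.5 and 88.5 CPM, then at 131.2, 126.7, 206, 79.8 and 72.9 CPM and then at 98.6, 118, 94.0 and 78.0 CPM. Its intervals were -0.22 to 0.46 and -0.46 to 0.27, so that a change of up to about these sizes was not excluded for either chain. Lama2, the alpha2 chain of muscle and Schwann cell laminin, was at 39.0, 44.4, 43.5, 31.8 and 31.6 CPM in intact nerve, at 29.5, 33.9, 14.7, 36.6 and 47.4 CPM at 7 dpi and at 48.9, 70.8, 99.2 and 60.1 CPM at 14 dpi. All 14 dpi libraries lay above all others, by 0.82 ± 0.26 against intact (adjusted p = 0.0478) and 1.09 ± 0.25 against 7 dpi (adjusted p = 0.0109). The first of these was 1.40 in batch 1133 and 0.49 in batch 1292 and kept its call under 6 of 18 alternatives, and the second missed the threshold without 14 dpi replicate 3 (0.90, adjusted p = 0.0529). The fibroblast marker sum was highest in that replicate (36490 CPM) and was 35680 CPM in 14 dpi replicate 4, where Lama2 was at 60.1 CPM. The Schwann cell sum (2430 CPM, against 635.5 to 1349 CPM) and the macrophage sum (1100 CPM) were also highest in 14 dpi replicate 3. From 7 to 14 dpi 8 of the 10 Schwann cell and 3 of the 10 fibroblast markers rose, and 0 fell. Lama2 was at 4.47 to 9.77 CPM in Cherry WT libraries. The part of fibroblast, Schwann cell and macrophage RNA in the Lama2 rise was not tested. Lama1 stayed at or below 4.61 CPM in every library.

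Of the gamma chains, Lamc1, the partner in most laminins, was at 149, 158, 164, 132.98 and 120.5 CPM in intact nerve and at 292, 190.9, 271, 195 and 181 CPM at 7 dpi. The groups did not overlap and the rise was 0.64 ± 0.16 (adjusted p = 0.00628). At 14 dpi it was at 147.5, 230, 246 and 197 CPM, and the difference from intact was 0.54 ± 0.18 (adjusted p = 0.0573). Lamc3, the gamma3 chain, went from 22.8, 34.6, 32.0, 28.4 and 28.4 CPM to 3.94, 5.71, 7.37, 7.40 and 3.61 CPM at 7 dpi and 3.84, 6.76, 5.15 and 2.37 CPM at 14 dpi. All injured libraries were below all intact ones, with -2.38 ± 0.27 (adjusted p = 3.4e-06) and -2.68 ± 0.29 (adjusted p = 1.5e-05).

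**Figure D2:**
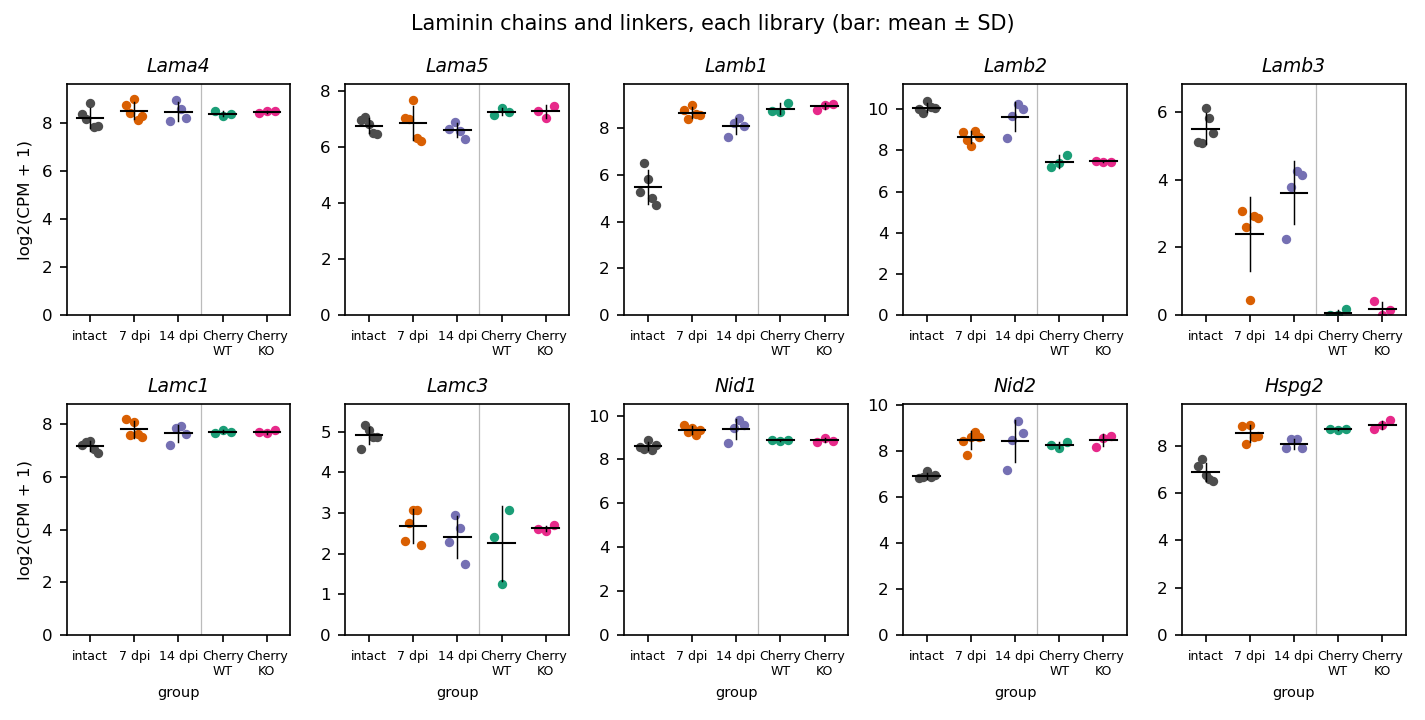
Level of 10 laminin and linker genes, as log2(CPM + 1), in each library (points) by group, with mean ± SD (bars), and a grey line between the separately normalized Tomato and Cherry libraries. Lamb1 is low only in intact nerve, Lamb2 and Lamb3 are lowest in the Cherry libraries, and the Tomato groups overlap for Lama4 and Lama5.

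Read per length (RPKM), the make-up of the laminin family shifted in its beta and gamma chains. Lamb2 made up 91.7% ± 2.46 (SD, n = 5) of the summed beta chain RPKM in intact nerve, 49.8% ± 7.45 (n = 5) at 7 dpi and 73.8% ± 5.42 (n = 4) at 14 dpi. Lamb1 made up 4.09% ± 2.68, 49.5% ± 7.79 and 25.1% ± 5.71. In Cherry libraries at 7 dpi the share of Lamb1 was 71.8% ± 1.96 in WT (n = 3) and 73.1% ± 2.12 in KO (n = 3). The ranges of the 3 Tomato groups did not overlap for either chain. Between the 2 gamma chains among the members, Lamc1 held 79.2% ± 2.64 in intact nerve and 96.8% ± 1.14 at 7 dpi. Among the alpha chains, Lama4 held 73.9% ± 4.39, 79.2% ± 1.66 and 76.4% ± 2.59 and Lama5 14.6% ± 2.38, 13.6% ± 2.68 and 11.2% ± 1.97, with overlapping ranges.

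**Figure D3:**
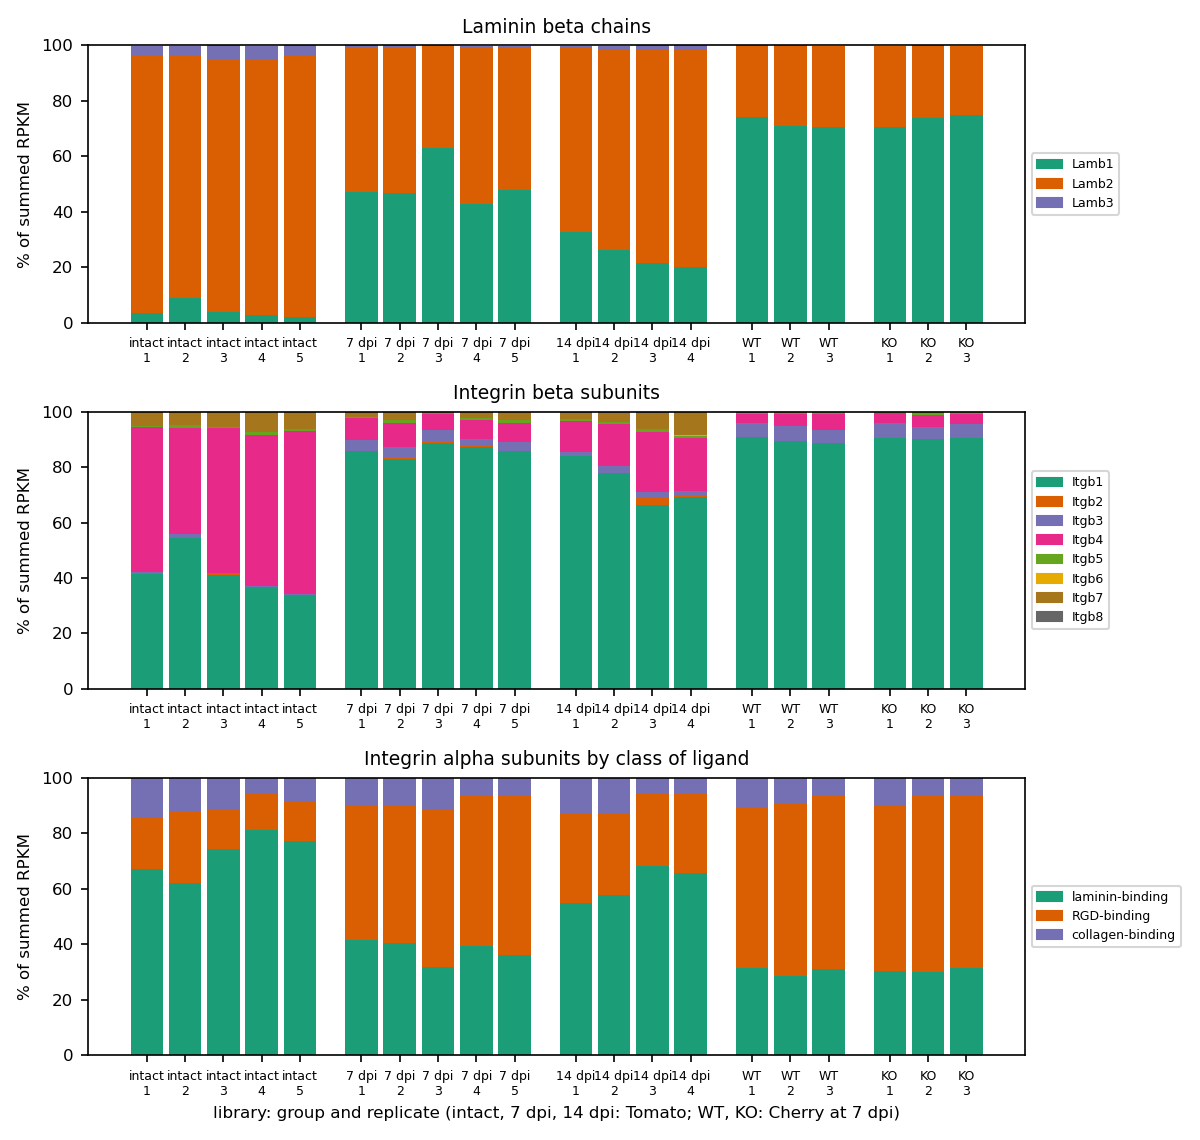
Shares of summed RPKM (y axis, %) in each library (x axis) for the laminin beta chains, the integrin beta subunits and 3 classes of integrin alpha subunit by ligand. Lamb1 and the RGD-binding class widen from intact nerve to 7 dpi and narrow again at 14 dpi, while Itgb4 does the reverse.

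Of the 4 linkers 3 rose at 7 dpi and were higher than in intact nerve at 14 dpi too. Hspg2, which encodes perlecan, was at 141, 171, 106, 96.8 and 90.4 CPM in intact nerve, at 458, 267, 469, 332 and 344 CPM at 7 dpi and at 236, 306, 309 and 235 CPM at 14 dpi, all above intact. The differences were 1.64 ± 0.19 (adjusted p = 4.0e-06) and 1.22 ± 0.19 (adjusted p = 4.3e-04). Nid2, nidogen-2, went from 111, 115, 142, 118 and 123 CPM to 349, 227, 396, 455 and 394 CPM and then to 145, 353, 632 and 445 CPM. Of its exon bases 8.96% lie opposite another gene. At 14 dpi only replicate 1 was near the intact libraries, and the differences were 1.55 ± 0.25 (adjusted p = 1.4e-04) and 1.56 ± 0.27 (adjusted p = 7.6e-04). Nid1, nidogen-1, went from 374, 356, 474, 346 and 408 CPM to 766, 602, 691, 554 and 644 CPM and then to 427, 694, 890.5 and 759 CPM. It changed by 0.74 ± 0.18 (adjusted p = 0.00367) and 0.81 ± 0.19 (adjusted p = 0.00804), with replicate 1 of 14 dpi inside the intact range. Agrn, encoding agrin, a heparan sulphate proteoglycan that binds laminin and dystroglycan, was at 93.1, 120, 71.6, 61.7 and 42.9 CPM in intact nerve, at 88.0, 92.0, 112, 49.2 and 52.5 CPM at 7 dpi and at 86.3, 111, 71.0 and 61.2 CPM at 14 dpi. The groups overlapped, and its log2 fold change at 7 dpi was 0.01, with an interval of -0.32 to 0.33. Of the 10 fibroblast markers 6 rose and 2 fell at 7 dpi (median 1.615), and 6 were higher and 0 lower than in intact nerve at 14 dpi (median 2.41). The part of fibroblast RNA in the rises of Lamb1 and the linkers was not tested. Within batches the 14 dpi difference of Nid1 was 1.21 (adjusted p = 0.071) in batch 1133 and 0.47 (adjusted p = 0.22) in batch 1292, and that of Nid2 was 1.01 (adjusted p = 0.0995) in batch 1292.

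Dag1, which encodes dystroglycan, the receptor that ties laminin to the dystrophin complex, was at 315, 307, 374, 252 and 286 CPM in intact nerve and at 248, 182, 214, 197 and 198 CPM at 7 dpi. It fell without overlap by 0.56 ± 0.16 (log2; adjusted p = 0.0144). At 14 dpi it was at 197, 336, 368 and 308 CPM, overlapping the intact range (-0.01 ± 0.18). In the list of the dystrophin complex and dystroglycan glycosylation, 2 of 21 tested genes rose and 8 fell at 7 dpi (median -0.17). Sspn, encoding sarcospan, fell by 1.72 ± 0.17, while Sntb2, which encodes a syntrophin, rose by 0.70 ± 0.15. From 7 to 14 dpi 4 rose and 0 fell, among them Sspn at 1.31 ± 0.17.

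Among integrin beta subunits, Itgb1, the shared partner of most matrix integrins, was at 630, 725, 806, 631 and 537 CPM in intact nerve, at 1358, 1075, 1559, 1310 and 1050 CPM at 7 dpi and at 985, 1154, 1032 and 947 CPM at 14 dpi. All injured libraries were above all intact ones, with 0.94 ± 0.14 (adjusted p = 6.2e-05) and 0.66 ± 0.15 (adjusted p = 0.00646). The 14 dpi difference of Itgb1 missed the threshold in batch 1133 alone (0.82, adjusted p = 0.257) and in batch 1292 alone (0.56, adjusted p = 0.0943). Itgb4, which pairs with Itga6 in hemidesmosomes and is also known from arterial endothelium and perineurium, was at 1327, 862, 1702, 1562 and 1562 CPM in intact nerve. It was at 209, 190, 169, 170 and 139 CPM at 7 dpi and at 218, 376, 570.5 and 438 CPM at 14 dpi. No library of either injured group reached the intact range, and Itgb4 changed by -2.98 ± 0.24 (adjusted p = 9.2e-08) and -1.85 ± 0.25 (adjusted p = 9.2e-05), with a rise of 1.13 ± 0.24 between the time points (adjusted p = 0.00579). This rise was 1.75 in batch 1133 alone. It missed the threshold in batch 1292 alone (0.625, adjusted p = 0.246) and without the 3 libraries that stood apart (0.94, adjusted p = 0.0515). Of its exon bases 8.41% lie opposite another gene, and whether counting used the strand was not stated. Itgb3, which pairs with Itgav in angiogenic vessels and with Itga2b in platelets, was at 17.5, 26.5, 20.04, 9.28 and 10.6 CPM, then at 96.2, 81.6, 120, 47.7 and 62.9 CPM and then at 29.7, 58.1, 39.9 and 37.3 CPM. It was above intact in all injured libraries, by 2.31 ± 0.21 (adjusted p = 4.9e-07) and 1.48 ± 0.22 (adjusted p = 2.7e-04). It fell by 0.83 ± 0.22 from 7 to 14 dpi (log2; adjusted p = 0.0246), with overlap, which missed the threshold without 7 dpi replicate 3 (adjusted p = 0.0555) or 14 dpi replicate 2 (adjusted p = 0.0648), and in batch 1133 alone (-0.47, adjusted p = 0.615).

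Itgb8, which with Itgav binds and activates latent TGF-beta, was at 7.52, 5.37, 9.90, 5.92 and 4.05 CPM in intact nerve, at 5.37, 2.16, 1.96, 2.45 and 3.72 CPM at 7 dpi and at 12.6, 13.4, 11.1 and 5.46 CPM at 14 dpi. It fell by 1.03 ± 0.31 (log2; adjusted p = 0.0167), with overlap, and rose from 7 to 14 dpi without overlap (1.76 ± 0.32, adjusted p = 0.00228). In batch 1133 alone neither passed (-0.68, adjusted p = 0.558, and 1.47, adjusted p = 0.227). Itgb5 and Itgb6, further partners of Itgav, did not pass in any comparison, Itgb5 at 4.83 to 14.9 CPM over the Tomato libraries. In shares of the integrin beta RPKM, Itgb1 went from 41.5% ± 7.80 in intact nerve to 86.1% ± 2.13 at 7 dpi and 74.3% ± 7.99 at 14 dpi, and Itgb4 from 51.2% ± 7.59 to 7.18% ± 1.15 and 16.8% ± 4.74. The share of Itgb3 was 0.709% ± 0.374, 3.63% ± 0.950 and 1.94% ± 0.436. The ranges of the 3 groups did not overlap for Itgb4.

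Of the 3 alpha subunits that bind laminin 2 fell at 7 dpi. Itga7 was at 301, 259, 437, 444 and 342 CPM in intact nerve, at 102, 95.4, 61.9, 120.3 and 78.5 CPM at 7 dpi and at 172, 266, 415 and 348 CPM at 14 dpi. The 7 dpi libraries lay below all others, with -1.96 ± 0.21 against intact (adjusted p = 2.3e-06) and a rise of 1.63 ± 0.22 to 14 dpi (adjusted p = 2.0e-04). The 14 dpi libraries overlapped the intact ones (-0.32 ± 0.22). Itga6, the alpha6 subunit of endothelial cells and partner of both Itgb1 and Itgb4, went from 239, 203, 287, 299.9 and 214 CPM to 195, 151.9, 170.2, 139.8 and 128 CPM at 7 dpi and 169, 204, 225 and 172 CPM at 14 dpi. It fell at 7 dpi without overlap (-0.67 ± 0.15, adjusted p = 0.00258). Itga3, the alpha3 subunit, was at 57.4, 68.2, 50.2, 46.5 and 35.0 CPM, then at 67.8, 54.1, 83.1, 52.9 and 47.7 CPM and then at 35.5, 52.9, 42.0 and 47.7 CPM. Its groups overlapped and it did not pass (0.25 ± 0.16 at 7 dpi).

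Of the subunits that bind RGD ligands, Itga5, the alpha subunit of the main fibronectin receptor, was at 147, 203, 121, 120 and 99.7 CPM in intact nerve, at 385, 331, 502, 411 and 379 CPM at 7 dpi and at 199, 245, 245 and 228 CPM at 14 dpi. The 7 dpi libraries stood above all others. The differences from intact were 1.55 ± 0.17 (adjusted p = 3.4e-06) and 0.77 ± 0.18 (adjusted p = 0.00945, with 1 of the 4 libraries inside the intact range), and the fall from 7 to 14 dpi was -0.79 ± 0.18 (adjusted p = 0.0107). In the batches alone the 14 dpi difference was 1.17 (adjusted p = 0.0756) and 0.49 (adjusted p = 0.217), and the fall missed the threshold too. Itgav, the alphav subunit, was at 21.6, 16.3, 31.0, 10.0 and 10.9 CPM in intact nerve and at 37.5, 33.4, 46.4, 17.5 and 17.4 CPM at 7 dpi. The groups overlap over both batches but not within either, and the rise was 0.75 ± 0.21 (adjusted p = 0.00985), or 0.77 in each batch alone. At 14 dpi Itgav was at 15.3 to 21.9 CPM in its 4 libraries, inside the intact range (0.18 ± 0.22). Itga2b, better known from platelets, went from 3.74, 5.53, 4.15, 2.38 and 2.67 CPM to 12.5, 9.001, 9.20, 8.47 and 7.94 CPM and then to 9.04, 9.63, 8.004 and 9.76 CPM. All injured libraries were higher, by 1.38 ± 0.20 (adjusted p = 4.4e-05) and 1.39 ± 0.21 (adjusted p = 2.7e-04). The 10 platelet markers had sums of 2.32 to 7.73 CPM in the intact libraries, 5.46 to 8.62 CPM at 7 dpi and 3.66 to 11.7 CPM at 14 dpi. Of the 6 that were tested, 1 rose and 0 fell at 7 dpi, and 0 passed at 14 dpi against intact nerve. Gp1bb was at 0 in every library and so gave no information. In Cherry WT libraries Itga2b was at 9.11 to 11.9 CPM. The part of platelet RNA in the Itga2b rise was not tested.

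The collagen-binding subunits moved in opposite directions. Itga2 was at 3.93, 5.06, 2.40, 2.04 and 2.24 CPM in intact nerve, at 21.8, 15.1, 32.3, 8.70 and 10.1 CPM at 7 dpi and at 13.5, 15.8, 4.39 and 4.95 CPM at 14 dpi. The 7 dpi libraries were all above the intact ones (2.41 ± 0.25, adjusted p = 1.4e-06), and the 14 dpi group, which overlapped them, differed by 1.596 ± 0.25 (adjusted p = 4.3e-04). The fall between the time points was -0.82 ± 0.25 (adjusted p = 0.0482) and kept its call under 5 of 18 alternatives. Itga1, the alpha1 subunit of collagen IV receptors, went from 309, 239, 303, 132 and 153.5 CPM to 174, 159, 215, 94.9 and 88.2 CPM at 7 dpi. The 2 batches differ in level, and within each batch the 7 dpi libraries lay below the intact ones. The log2 fold change was -0.64 ± 0.13 (adjusted p = 0.00112), and -0.61 and -0.62 in the batches alone. At 14 dpi Itga1 was at 197, 261, 129.7 and 107 CPM and did not pass (-0.29). Itga10 and Itga11, which are known from cartilage and fibroblasts, stayed at or below 4.29 CPM, and 34.5% of the exon bases of Itga10 lie in another gene model.

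**Figure D4:**
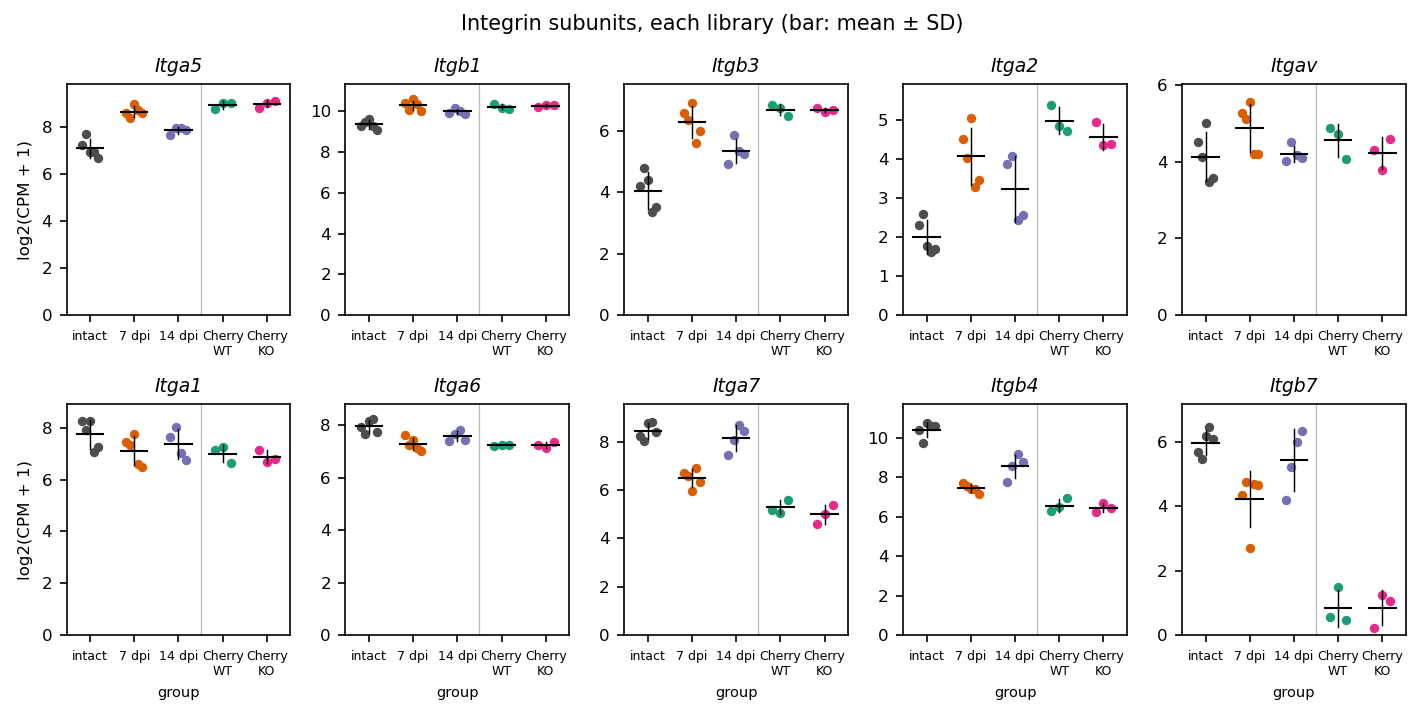
Level of 10 integrin subunits, as log2(CPM + 1), in each library (points) by group, with mean ± SD (bars), and a grey line between the separately normalized Tomato and Cherry libraries. Itga5, Itgb1, Itgb3 and Itga2 are higher at 7 dpi than in intact nerve, Itga7, Itgb4 and Itgb7 are lower, and the last 3 are lower still in the Cherry libraries.

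By class, laminin-binding subunits made up 72.4% ± 7.71 (SD, n = 5) of the summed RPKM of the laminin-, RGD- and collagen-binding alpha subunits in intact nerve, 37.8% ± 3.86 at 7 dpi and 61.7% ± 6.36 at 14 dpi. RGD-binding subunits made up 17.2% ± 5.36, 53.5% ± 4.06 and 29.0% ± 2.52, and collagen-binding ones 10.4% ± 3.29, 8.73% ± 2.38 and 9.29% ± 4.10. The 7 dpi range of the first 2 classes overlapped neither other group. The ratio of Itga6 to Itga5 RPKM was 1.94 ± 0.621 in intact nerve, 0.399 ± 0.0806 at 7 dpi and 0.842 ± 0.0675 at 14 dpi, and it was 0.313 ± 0.0315 in Cherry WT libraries.

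Most integrins of leukocytes were low in these cells, which were sorted as CD45-negative. Itgb7, the partner of Itga4 and Itgae on lymphocytes, was the exception: it was at 50.9, 43.0, 72.0, 86.3 and 66.9 CPM in intact nerve, then at 19.2, 25.8, 5.54, 24.7 and 24.0 CPM at 7 dpi and at 17.2, 36.0, 62.9 and 80.6 CPM at 14 dpi. It fell at 7 dpi without overlap (-1.70 ± 0.33, adjusted p = 6.6e-04). Its rise to 14 dpi was 1.13 ± 0.34 (adjusted p = 0.0475) and kept its call under 7 of 18 alternatives. The 10 lymphocyte and neutrophil markers together summed to 0.984 to 13.6 CPM over the Tomato libraries, and in Cherry WT libraries Itgb7 was at 0.467, 1.80 and 0.368 CPM. Itgb2, the beta chain of most leukocyte integrins, reached 34.5 CPM in 14 dpi replicate 3 and 9.85 CPM in 7 dpi replicate 4, the libraries with the most macrophage markers, and was at most 1.47 CPM in the other Tomato libraries. Itgax reached 10.5 CPM in that 14 dpi replicate and at most 2.18 CPM elsewhere. Itga4 and Itga9, whose products bind VCAM-1 and tenascin C, did not pass in any comparison, Itga4 at 1.91 to 5.00 CPM and Itga9 at 15.3 to 32.0 CPM. Itgam and Itgad were below the filter, and 70.0% of the exon bases of Itgam lie in another gene model of the table, so its counts are uncertain.

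Markers of the perineurium, the sheath of nerve fascicles, also fell at 7 dpi and were higher again at 14 dpi. Some of the genes that fell followed them from library to library. The perineurial sum was 5017, 4189, 5835, 6550 and 4513 CPM in the intact libraries, 1152, 1162, 480, 1326 and 1228 CPM at 7 dpi and 1659, 2489, 3661 and 3879 CPM at 14 dpi. The library with the lowest sum was intact replicate 2, 7 dpi replicate 3 and 14 dpi replicate 1, and in each of the 3 groups that library also had the lowest Lamb2, Lamb3, Itga7 and Itgb7. The fibroblast sum was lowest in the same 3 libraries too (9641, 4496 and 16730 CPM). The pan-endothelial sum was highest in intact replicate 2 (13090 CPM) and 7 dpi replicate 3 (11770 CPM), but not in 14 dpi replicate 1 (8215 CPM). Other genes that fell did not follow these libraries. Lama3 was highest in intact replicate 2 and 7 dpi replicate 3, Lamc3 in intact replicate 2 and Itga1 in 7 dpi replicate 3. Itgb4 was lowest in intact replicate 2 and 14 dpi replicate 1 but not in 7 dpi replicate 3. In 7 dpi replicate 3 Lamb1, Itga2, Itga5, Itgb1 and Itgb3 were highest, whereas in 14 dpi replicate 1 Lamb1, Nid1, Nid2, Itga5 and Itgb3 were lowest too. Of the 9 perineurial markers 8 fell and 1 rose at 7 dpi, and 7 of the 10 mural and 7 of the 10 Schwann cell markers fell too. Slc2a1, in that list, is also a barrier transporter of endothelium. The part of these cells in the falls was not tested.

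The Cherry WT libraries of 7 dpi held fewer perineurial and fibroblast markers, while their sums of mural markers (1210 to 1300 CPM) and Schwann cell markers (142 to 463 CPM) overlapped those of Tomato libraries of 7 dpi (849 to 2220 and 145 to 214 CPM). Cldn1, a perineurial claudin, was at 0.938 to 2.62 CPM against 69.1 to 475 CPM in Tomato libraries of 7 dpi, and Dcn at 59.5 to 67.0 CPM against 703 to 5269 CPM. Of the genes that rose in Tomato, Lamb1 was at 425, 412 and 550 CPM in the Cherry WT libraries, Hspg2 at 420, 408 and 413 CPM and Itga5 at 426, 511 and 515 CPM. Itgb3 was at 115, 106 and 89.1 CPM, Itga2 at 40.6, 27.8 and 25.2 CPM and Itgb1 at 1316, 1161 and 1130 CPM. Each of these lay above every intact Tomato library, as did Lamc1 (203 to 219 CPM), Nid2 (277.5 to 339.6 CPM) and Itga2b (9.11 to 11.9 CPM). Nid1 (460.6 to 474.8 CPM) overlapped the intact libraries (346.3 to 473.9 CPM), and Itgav (15.9 to 28.4 CPM) lay inside their range (10.0 to 31.0 CPM). Of the genes that fell, Lamb2 was at 143, 164 and 221 CPM, Itgb4 at 75.9, 89.1 and 121 CPM and Itga7 at 35.2, 32.5 and 47.7 CPM. These lay below every Tomato library, as did Lamb3 and Itgb7. The others did not: Itga1 (98.4 to 150.8 CPM), Itga6 (148.2 to 150.5 CPM) and Lama3 (19.3 to 23.5 CPM) lay inside the Tomato range of 7 dpi. Lamc3, Dag1 and Itgb8 (3.04 to 9.23 CPM) overlapped that range, and Itga1 and Itgb8 overlapped the intact libraries too. The experiments differ in reporter and were normalized separately, so these levels are a description.

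Related genes from lists of the same pathway are given as counts. Of the 8 basement membrane collagens 4 rose and 2 fell at 7 dpi (median 1.01, beside -0.10 for all genes), and 5 were higher and 2 lower at 14 dpi. Col18a1 rose by 3.20 ± 0.24, Col15a1 by 2.88 ± 0.27 and Col4a1 by 2.52 ± 0.19, while Col4a3 and Col4a4, chains of the specialised collagen IV network that pairs with beta2 laminin in mature basement membranes, fell by 3.33 ± 0.35 and 2.49 ± 0.28 (log2). Of 14 other laminin receptors and laminin-related genes, 2 rose and 11 fell (median -1.37). Bcam, a receptor of the alpha5 chain, fell by 2.22 ± 0.17 and the syndecan Sdc4 by 2.62 ± 0.28, while Rpsa, a ribosomal protein also called the laminin receptor, rose by 1.29 ± 0.21. From 7 to 14 dpi 6 of the 14 rose and 0 fell.

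Of 17 integrin ligands outside the basement membrane 7 rose and 2 fell at 7 dpi (median 0.47). Tnc, tenascin C, rose by 3.81 ± 0.32 and Madcam1, the ligand of the alpha4 beta7 integrin, by 4.58 ± 0.56, while Vtn, vitronectin, fell by 2.28 ± 0.24 and Cdh1, E-cadherin and the ligand of Itgae, by 4.25 ± 0.34. Of 20 focal adhesion adaptors and kinases 6 rose and 8 fell (median -0.11). Lims1, the PINCH adaptor, rose by 1.07 ± 0.12, and Tns1 and Tns3, which encode tensins, fell by 1.71 ± 0.17 and 1.47 ± 0.17. At 14 dpi 1 of the 20 was higher and 4 lower than in intact nerve.

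The last comparison asked whether deletion of Plxnd1 by the endothelial Cre changes these genes at 7 dpi. Of the 35 members tested 0 were called (edgeR), against 0.308% of all 16227 genes (0.129% higher and 0.179% lower). At an unadjusted p under 0.05 there were 4 (Lama3, Itga7, Itgb2 and Itgb4), or 11.4% beside 11.5% of all genes. DESeq2 also called 0, with 3 at an unadjusted p under 0.05. The smallest adjusted p was 0.234, for Itga7, at 35.2, 32.5 and 47.7 CPM in WT and 23.0, 31.5 and 40.4 CPM in KO libraries. The groups overlapped and the difference was -0.48 ± 0.14, with an interval of -0.79 to -0.17. On the authors' second table, in which ComBat-Seq had removed batch differences, and without a batch term, Itga7 passed (-0.51, adjusted p = 0.0425). In 4 members the KO libraries did not overlap the WT libraries, namely Lama3 (20.9, 23.5 and 19.3 CPM against 17.9, 15.4 and 12.4 CPM), Agrn, Dag1 and Itgb2. This was 4 of 35, beside 11.8% of all genes tested.

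Among the members that changed with injury, the width of the interval of the KO difference varied. Lamb1 was at 449, 509 and 531 CPM in KO libraries, overlapping WT, with a difference of 0.01 and an interval of -0.19 to 0.21. Lamb2 was at 179, 175 and 172 CPM (-0.07, interval -0.34 to 0.20). Itga5 was at 445, 511 and 545 CPM (-0.02, interval -0.25 to 0.21), and Itgb3 at 107, 97.8 and 102 CPM (0.06, interval -0.16 to 0.29). For Hspg2 the KO libraries were at 416, 464 and 536 CPM (0.14, interval -0.09 to 0.37). Intervals were wide for Itgb8 (-1.17, interval -2.75 to 0.40), Itgb7 (-0.23, interval -2.72 to 2.25) and Lamc3 (0.13, interval -0.81 to 1.07), and Lamb3 was below the filter. The whole interval lay within ± 0.5 for 17 and within ± 1 for 25 of the 35 members, so larger changes were not resolved for the others. Perineurial markers summed to 174 to 241 CPM and Schwann markers to 107 to 212 CPM in KO, against 331 to 383 CPM and 142 to 463 CPM in WT libraries, and their part in the Itga7 and Itgb4 values was not tested. Of the related lists, 1 of 16 tested integrin ligands fell, Icam1, the adhesion molecule bound by leukocyte beta2 integrins (-0.65 ± 0.11, adjusted p = 0.0248), and 0 of the basement membrane collagens, other laminin receptors, dystrophin complex and focal adhesion genes passed (edgeR). The share of sorted cells with the deletion was not measured.

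**Figure D5:**
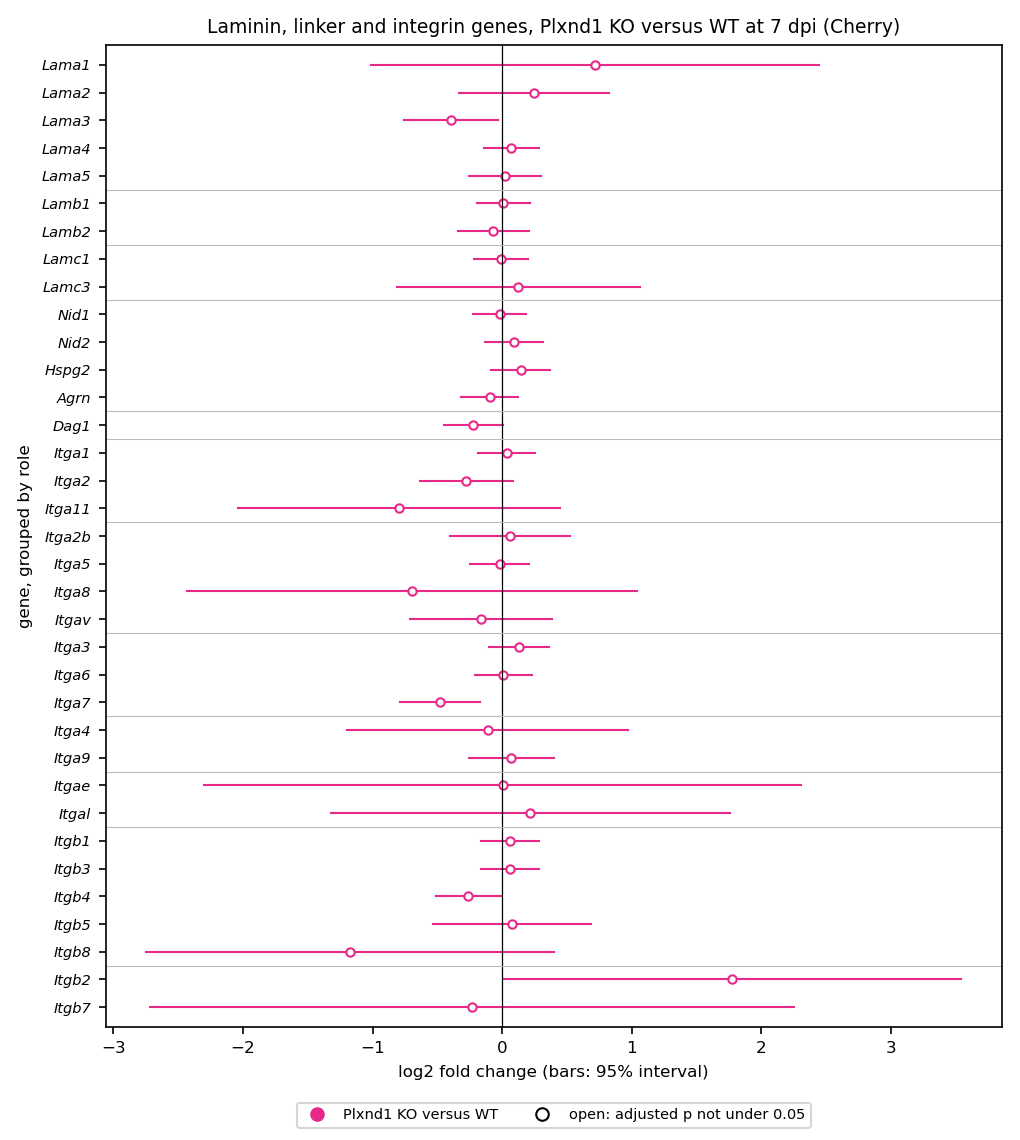
Log2 fold change of Plxnd1 KO against WT at 7 dpi (x axis, bars: 95% interval) for the 35 tested members (y axis, grouped by role), with open points since none passed an adjusted p under 0.05. Itga7 lies at -0.48, and Lamb1, Lamc1, Nid1, Itga5 and Itga6 lie near 0.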

How the data were processed

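RNA of reporter-positive, CD45-negative cells sorted from digested nerves was sequenced from polyA RNA. The submitters' processing notes name Trimmomatic 0.39, STAR 2.5.3a, featureCounts 1.6.4, Cell Ranger 3.0.2 and mm10, and the annotation release and strand setting were not given in the sources used here. The deposited tables hold raw read counts per gene made by the authors, for Tomato and Cherry separately, and a second Cherry table of counts after ComBat-Seq, as the names of the deposited tables say.

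The robust quasi-likelihood test of edgeR 4.0.16 (R 4.3.3) was run on the raw counts, after filterByExpr and TMM scaling and with terms for group and batch, in 1 fit per experiment, with Benjamini-Hochberg adjustment over all genes tested. The fold changes estimated by edgeR were checked on simulated counts, drawn with the spread of these data but without batch differences or outlying libraries. CPM were scaled within each experiment, and RPKM used the deposited gene lengths. Members with a group mean of at least 30 CPM, or called with a log2 change of at least 1, are given by library. Members and lists were chosen with earlier results of these data known. DESeq2 1.42.0, other filters, each batch alone and left-out libraries were alternatives. The 32 pairs of replicates all differed by more than sampling noise (chi-square per degree of freedom 15.4 to 121).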

Additional observations from a re-analysis of the deposited data

Results flagged for a closer look

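Of 106 group values of members with a mean of at least 1 CPM, 4 held a library whose gap to the others on the log2(CPM + 0.5) scale was above Dixon's critical value, and chance alone gives about 1 in 20. Lamb3 was at 0.375 CPM in 7 dpi replicate 3, against 5.02 to 7.46 CPM in the other 7 dpi libraries. Itgb7 was at 5.54 CPM in the same library, against 19.2 to 25.8 CPM. That library also had the lowest perineurial marker sum, 480 CPM, against 1152 to 1326 CPM in the other 7 dpi libraries. Its fibroblast marker sum was the lowest too, 4496 CPM against 11220 to 20200 CPM. Over 19 alternatives, leaving out this library among them, the log2 fold change from intact nerve to 7 dpi ran from -3.54 to -2.88 for Lamb3 and from -1.97 to -1.48 for Itgb7, and each kept its call in all 19. Itga8, the alpha subunit that binds nephronectin, was at 5.68 CPM in intact replicate 2, against 3.03 to 3.63 CPM in the other intact libraries. Itgae, the alphaE subunit of lymphocytes, was at 4.48 CPM in intact replicate 5, against 0.0734 to 0.419 CPM, and this library had counts for 45590 genes against 24996 to 32905 in the other intact libraries.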

How the results depend on the processing

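No called result changed direction under the alternatives that were run. The 11 and 11 members called higher and lower at 7 dpi were 7 and 7 in batch 1133 alone, and among all genes 1116 and 926 were called there. At 14 dpi the 10 higher members were 6 in batch 1133 alone and 5 in batch 1292 alone (616 and 719 genes), and the 3 lower members were 5 with DESeq2. All lower genes at 14 dpi were 1718 with DESeq2, 676 without the batch term, 179 in batch 1133 alone and 670 without 14 dpi replicate 2. From 7 to 14 dpi the 6 higher members were 2 in batch 1292 alone and 2 without the 3 libraries that stood apart, an alternative chosen after seeing the data. The 3 lower members were 1 without the batch term, 0 in batch 1133 alone, 1 in batch 1292 alone and 1 to 3 with single libraries left out, with 1 without 7 dpi replicate 3 or 14 dpi replicate 2. All genes higher in that comparison were 697 without the batch term, 264 and 249 in the batches alone, 762 without 14 dpi replicate 3 and 645 without the 3 libraries, and those lower were 1555 with DESeq2, 529 without the batch term, 102 and 477 in the batches, 518 without 14 dpi replicate 2 and 1341 with the 2 groups fitted alone. In the Plxnd1 comparison the 0 lower members were 1 with the ComBat-Seq counts. All genes called higher (21) there were 120 with DESeq2, 86 without a filter, 3 without the batch term, 3 to 20 with single libraries left out and 305 with ComBat-Seq, and those lower (29) were 121, 144, 2, 2 to 26 and 245, and 8 in batch 1292 alone. Within single batches and with libraries left out fewer samples were fitted, and for the other settings the cause was not tested. No paired analysis was run. The titles carry no replicate numbers that groups share, and no label ties neighbouring title numbers to a shared animal or day. If libraries were collected in sets across groups, the tests and intervals here do not take this into account.

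The labels do not tie libraries to animals, Tomato and Cherry differ in reporter and were scaled separately, and markers of fibroblasts and perineurium were present in every Tomato library. Lama1, Itga10, Itga11, Itgb6, Itgad, Itgam and Itgax rest on few counts.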
